A study of Homo sapiens with 2 samples.

Results

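The enzymes that write and erase N6-methyladenosine (m6A) in mRNA were followed as transcripts in RNA that came down with CRTC2 from HCCLM3 cells, an established human hepatocellular carcinoma line of unmodified genotype. The group holds 10 genes chosen by name: METTL3, METTL14, WTAP, VIRMA, ZC3H13, RBM15 and CBLL1 of the writer complex, METTL16, a separate writer, and the erasers FTO and ALKBH5. All 10 were found, with 179 of the 175546 peaks in the list, which spans 19480 genes. CRTC2 is a coactivator of the transcription factor CREB, and the series concerns its condensates with YTHDF2, a protein that reads m6A. The samples are 1 CRTC2 RNA immunoprecipitation (RIP) library and 1 input library of the same unmodified line, with no replicate of either. No precipitation with a control antibody was analysed here, so RNA bound to CRTC2 and RNA carried over by the precipitation cannot be told apart.

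METTL3 carries the catalytic site of the writer complex, and METTL14 is its inactive partner that helps to hold the RNA. WTAP brings that pair to nuclear speckles, and VIRMA, ZC3H13, RBM15 and the RING-finger protein CBLL1 (also called HAKAI) are accessory subunits that place or stabilise the complex on RNA. METTL16 works outside that complex, on the U6 spliceosomal RNA and on hairpins in the mRNA of MAT2A, which makes the methyl donor. FTO and ALKBH5 are oxidative demethylases that take methyl groups off adenosine.

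A peak was given to the gene named in its exon or intron annotation, and otherwise to the gene with the nearest start site. Exonic below means the exon, 5′ UTR and 3′ UTR classes. A peak within 3000 bp of a start site falls in the promoter class, which includes first exons of spliced RNA. The fold of a peak is the authors' ratio of RIP over input at its summit, with a pseudocount of 1. The RIP fragments and the input level of each summit were worked back from its fold and p. The 95% interval beside a fold is an exact Poisson interval of its RIP fragments at a fixed input level. It covers the counting error of the RIP fragments only, and not that of the input. Listed peaks were already selected as high over input, and the interval does not allow for that. The input level is the local level against which the peak was called, in units in which 1 input fragment counts 0.634. A level below 0.634 is thus less than 1 input fragment. No test between libraries was possible, and nothing below has a replicate check.

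Some peaks lay at the very start of a transcript. For CBLL1 and ALKBH5 the bases around such a summit are shown, because they place the summit just after the RefSeq start of the gene. They come from the tabulated window of each start site, 250 bases before it to 50 after. They are RefSeq sequence (GRCh38.p14, gene strand, DNA letters), with the base at the summit in capitals.
CBLL1, chr7:107744154-107744183, bases 13 to 42 of the gene: gagccgaatcatggaTcacactggtaagga
ALKBH5, chr17:18183849-18183877, bases 22 to 50 of the gene: Cgctggcggacgtcgggctggctgcccgt
The CBLL1 peak (107744114 to 107744196) began before the gene's start at 107744142, and only its bases from there on, the summit among them, lie in the gene. It had 14 RIP fragments and a fold of 1.88 (1.09 to 3.07). The list assigns it to CBLL1-AS1, an antisense gene that overlaps this start, and the list gives no strand, so the origin of its reads is uncertain. The ALKBH5 peak had 16 RIP fragments and a fold of 1.44 (0.862 to 2.29). The METTL16 start also held a summit, with 4 fragments and a fold of 1.72. A ZC3H13 peak reached into its window with the summit outside, and the windows of RBM15, METTL14, WTAP, METTL3 and FTO held no peak. An RBM15 peak began just past its window, 63 bp after the start, with 7 fragments. VIRMA, whose window was not used here, had a peak with its summit 23 bp after its start, with 12 fragments and a fold of 2.14 (1.19 to 3.62).

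All 10 transcripts carried exonic peaks, 94 in all, against 55.7% of the 20056 protein-coding RefSeq genes. Those 20056 were taken whatever their expression in HCCLM3 cells, which was not measured here, so the 2 shares do not compare like genes. The list holds peaks down to a −log10 p of 1.30, before correction for the number of peaks. Only 2 of the 94 exonic peaks reached q of at most 0.05. The number of exonic peaks ran from 3 in ALKBH5 and 4 in RBM15 to 19 each in VIRMA and ZC3H13, with a median of 6.5 against 4 over all 13184 genes with an exonic peak. The median fold of the 94 peaks was 2.11 (order-statistic interval 1.92 to 2.40), against 1.94 over 81252 exonic peaks. RIP fragments at these summits had a median of 4 (quartiles 2 and 5), against 3 over all exonic peaks. The interval of the fold lay above 1 for 37 of the 94, or 39.4%, near the 36.3% of all exonic peaks.

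Of the 10 genes, 2 (FTO and VIRMA) had a peak with q no higher than 0.05, 1 exonic peak each. These are 2.13% of the 94 exonic peaks, against 2.37% of all exonic peaks. Among all genes with an exonic peak 11.1% had one at this q, and among the 8780 genes with 3 to 19 exonic peaks, the range of these transcripts, 13.1% did. A count of 2 is too small to read against that background. The same peaks were the members' only ones with a fold of at least 4, which 2.66% of all exonic peaks and 12.6% of genes with an exonic peak reached. The highest exonic fold per gene had a median of 3.34 over the 10 genes, against 2.82 over all genes and 3.06 over the 8780. The highest of several peaks grows with their number, so the median fold of each gene is given beside it below.

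**Figure D1:**
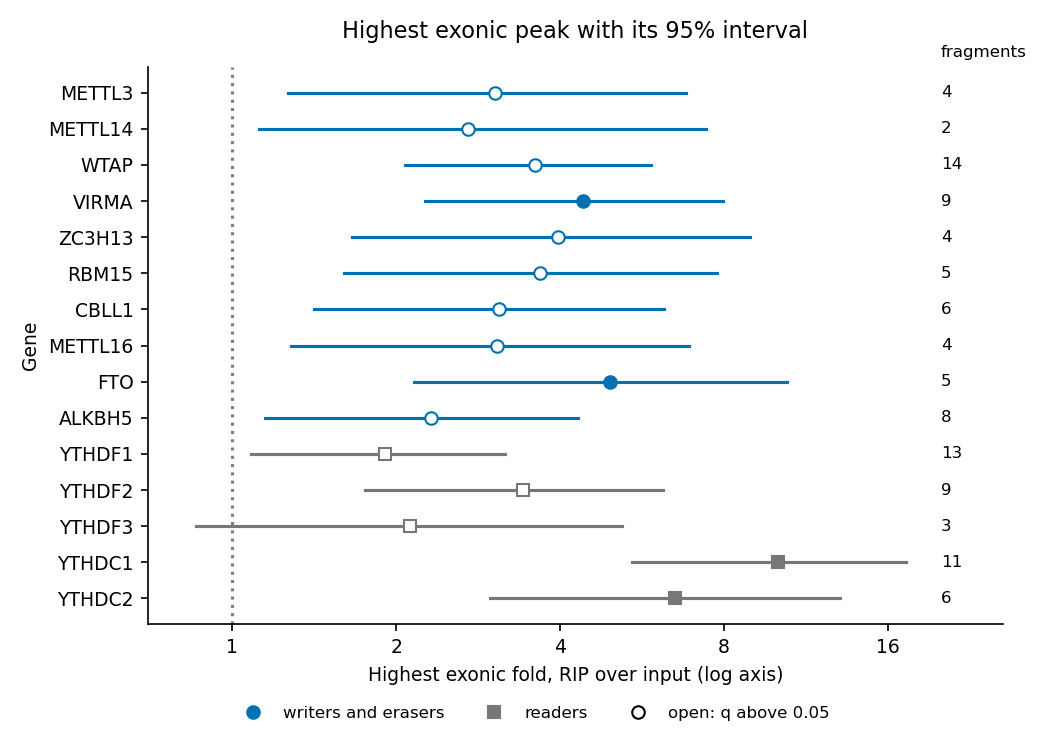
The highest exonic fold of each writer and eraser transcript (circles) and of the YTH readers (squares) is plotted on a log axis with its exact Poisson 95% interval, and the numbers at the right are RIP fragments at the summit. Filled symbols (FTO, VIRMA, YTHDC1 and YTHDC2) reached q of at most 0.05, and the intervals of all 10 writers and erasers overlap.

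The catalytic pair had modest peaks on few fragments. METTL3 had 6 exonic peaks with a median fold of 1.82, in exons 2, 3, 4, 6 and 7 of 11 and in the 3′ UTR. Its highest peak lay in exon 2 (hg38 chromosome 14, 21503765 to 21503856), with 4 RIP fragments against an input level of 0.648 and a fold of 3.03 (1.27 to 6.82). Exon 7 followed at 2.85 (1.15 to 6.96) on 3 fragments, and the other METTL3 exonic peaks stood between 1.68 and 1.84. The deepest of them, exon 3, held 6 fragments against an input level of 3.17, and with at least 5 fragments required its fold of 1.68 was the highest of METTL3.

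METTL14 had 16 exonic peaks with a median fold of 1.95 and no intron peak. Its exon peaks lay in exons 3, 4 and 6 to 11 of 11, at 1.68 to 2.51, so only exons 1, 2 and 5 had none in the exon class. The highest METTL14 fold, 2.71 (1.12 to 7.42), was in the 3′ UTR (chromosome 4, 118711924 to 118712046) on 2 fragments, and was 4.11 with a pseudocount of 0.5. Of its 8 3′ UTR peaks 4 rested on 1 fragment. The final 2 of these, including 1 at 2.68 (1.09 to 6.55), lay beyond the RefSeq end of METTL14 and were assigned to it only by the nearest start site.

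Under the assignment used, WTAP had the highest median fold of the group, 2.83 over 7 exonic peaks. That median leaves out 3 3′ UTR peaks inside WTAP that were given to ACAT2, at 2.26, 1.76 and 1.76. All 3 lay below it, so the ranking depends on the assignment. Unlike those of most members, the folds of WTAP rested on many fragments. In exons 2 to 5 of 7 the RIP fragments were 9, 14, 15 and 14, against input levels of 2.53, 3.17, 4.44 and 7.60, and the folds 2.83, 3.60, 2.94 and 1.74. The exon 3 peak (chromosome 6, 159739039 to 159739074) had a fold of 3.60 (2.08 to 5.88) and a q of 0.0523, just short of the limit that VIRMA met at 0.0415. Toward the 3′ end, in exons 7 and 8 of the 8-exon transcript, the folds were 2.08 and 3.53 (1.68 to 6.80). Of the 7 intron peaks of WTAP 6 rested on 1 fragment.

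VIRMA, the largest scaffold subunit of the complex, carried peaks along most of its message. Of its 24 exons, 18 held a peak: exons 2, 4 to 11, 13 to 15 and 18 to 23. The highest was in exon 5 (chromosome 8, 94534812 to 94534953), with 9 RIP fragments against an input level of 1.27, a fold of 4.41 (2.26 to 7.98) and a q of 0.0415. Exon 11 stood at 3.20 (1.30 to 7.82) on 3 fragments and exon 10 at 3.06 on 4. The next exons downstream of exon 5 were much deeper in both libraries: exon 6 held 16 fragments against 8.87 and exon 7 held 21 against 11.4, with folds of 1.72 and 1.77. The exons with the most RIP fragments were therefore not those with the highest fold, and the median over the 19 peaks was 2.21. VIRMA had 9 intron peaks, 8 of them on 1 fragment.

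ZC3H13, the zinc finger subunit that holds the complex in the nucleus in mouse cells, also had 19 exonic peaks, with a median fold of 2.45. They were denser toward the 3′ part of the gene, where every exon from 10 to 17 of 19 held a peak and exon 14 held 3. The highest lay in exon 16 (chromosome 13, 45965344 to 45965410), with 4 RIP fragments against an input level of 0.261, a fold of 3.96 (1.66 to 8.91) and a q of 0.128. Exon 13 stood at 3.67 (1.61 to 7.75) on 5 fragments. A pair of 5′ UTR peaks stood at 3.06 and 2.45, on 4 and 3 fragments. No ZC3H13 exonic peak held more than 7 fragments. Among the 19 were peaks in exon 9 of a 20-exon non-coding transcript of the gene, with folds of 1.85, 2.68 and 1.79 on 1, 2 and 1 fragments. A peak in intron 8 of ZC3H13, on 2 fragments, shared the lowest q of the gene, 0.128.

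RBM15, an RNA-binding adaptor that brings the complex to its sites, is a short gene of 7301 bp with few introns, and its RIP signal lay mostly outside the exon class. Its 4 promoter-class peaks, 63 to 2466 bp after the start, held 7, 10, 12 and 6 RIP fragments with folds of 2.26, 2.02, 2.39 and 3.09. Its highest exonic peak was in the 3′ UTR (chromosome 1, 110345811 to 110346570), with 5 fragments and a fold of 3.67 (1.61 to 7.75). The other 3′ UTR peak within the gene stood at 2.39 on 3 fragments. A further 4 peaks assigned to RBM15, with folds of 1.58 to 1.84 on 1 or 2 fragments, lay beyond its RefSeq end. The median over the 4 exonic peaks of RBM15, 2 of them beyond that end, was 2.11.

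CBLL1 was linked through its gene identifier, because the list names CBLL1-AS1 as the nearest gene for all of its peaks. Exons 2 to 6 of 6 each held a peak. The highest was in exon 3 (chromosome 7, 107753452 to 107753539), with 6 RIP fragments against an input level of 1.27 and a fold of 3.09 (1.41 to 6.20). The last exon was deepest, at 16 fragments against 7.60, with a fold of 1.98 (1.18 to 3.14). The median over the 6 exonic peaks was 1.83, and the 3 intron peaks of CBLL1 rested on 1 fragment each. Of the 6, 1 lay in exon 3 of a 7-exon non-coding transcript, with a fold of 2.40 on 2 fragments.

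METTL16 had 6 exonic peaks with a median fold of 1.99, in exons 3, 5, 6, 7, 9 and 10 of 10. The highest lay in exon 6 (chromosome 17, 2464197 to 2464232), with 4 RIP fragments against an input level of 0.634 and a fold of 3.06 (1.28 to 6.88). Its 3′ end was split by the assignment: 5 peaks inside the gene were given to LOC284009, 4 of them as promoter class. The highest of these stood at 3.47 (1.45 to 7.80) on 4 fragments, above every exonic peak given to METTL16 itself, and whether its reads come from METTL16 was not tested.

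Among the erasers, FTO had the highest exonic fold of the 10 genes, in exon 5 of 9 (chromosome 16, 53873822 to 53873890), at 4.93 (2.16 to 10.4) with a q of 0.00873. It exceeded the highest exonic fold of 96.5% of genes with an exonic peak, taken whatever their number of such peaks. This peak lies nearer to the start of another gene, and with every peak given to the nearest start the highest FTO fold was 3.67, below VIRMA at 4.41 and ZC3H13 at 3.96. With a pseudocount of 0.5 it was 7.68. In exons 4 to 8 the RIP fragments were 5, 5, 5, 3 and 5, against input levels of 0.634, 0.216, 1.90, 1.27 and 2.53, and the folds 3.67, 4.93, 2.07, 1.76 and 1.70. RIP fragments were the same at 4 of these 5 exons, so their folds differ only through the input level, which was lowest at exon 5. The level there, 0.216, is below the 0.634 of 1 input fragment. The other FTO exonic peaks were a pair in the 5′ UTR and a wide peak of 44086 bp on 1 fragment. Of the 5′ UTR pair, 1 stood at 2.49 on 5 fragments. The other, at 1.94, was 10343 bp wide and rested on 1 fragment at an input level of 0.0298. The median over the 8 FTO exonic peaks was 2.01.

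ALKBH5 had the lowest highest fold, 2.32 (1.15 to 4.31) in exon 4 of 4 (chromosome 17, 18208261 to 18208379). That was above the highest fold of only 27.9% of genes with an exonic peak, taken whatever their number of such peaks. ALKBH5 also had the fewest exonic peaks, and their median fold of 2.13 was below only WTAP (2.83), ZC3H13 (2.45) and VIRMA (2.21). With at least 5 fragments required, METTL3 at 1.68, METTL14 at 2.07 and METTL16 at 2.07 had a lower highest fold. The exonic summits of ALKBH5 had a median of 9 RIP fragments, as did those of WTAP, against 2.5 to 6 in the other members. The 3 ALKBH5 exonic peaks, in exons 2, 3 and 4, held 9, 20 and 8 RIP fragments against input levels of 4.44, 8.87 and 2.89, with folds of 1.84, 2.13 and 2.32. Its lowest q, 0.926, was that of a peak in intron 2 on 2 fragments with a fold of 2.72. The 3 promoter-class peaks held 16, 15 and 13 fragments, with folds of 1.44, 1.86 and 1.63. A further 3 peaks in its 3′ UTR were given to LLGL1, the next gene, and held 13, 11 and 9 fragments with folds of 1.52, 2.41 and 2.68. The intervals of the highest FTO and ALKBH5 peaks overlapped, and a difference between them was not tested.

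**Figure D2:**
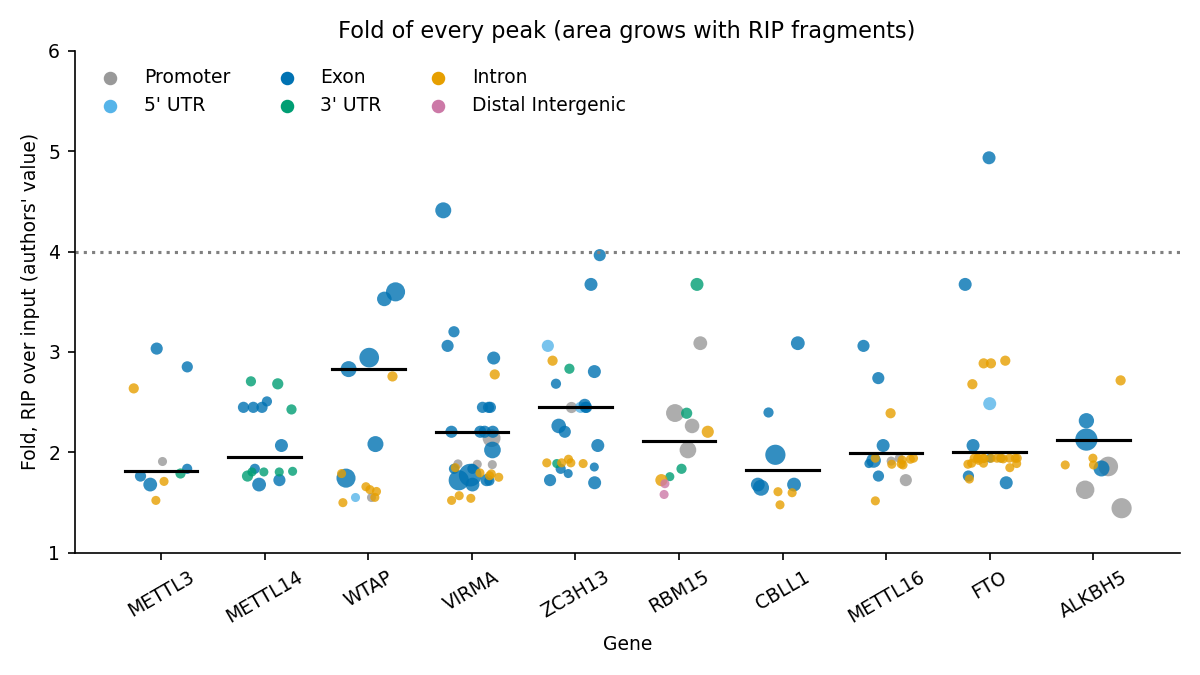
Each point is 1 peak, placed by gene and by the authors' fold, coloured by annotation class, with an area that grows with RIP fragments, and the bar is the median of the gene's exonic peaks. Exonic medians lie between 1.82 in METTL3 and 2.83 in WTAP, and only FTO and VIRMA have a peak above the dotted line at a fold of 4.

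**Figure D3:**
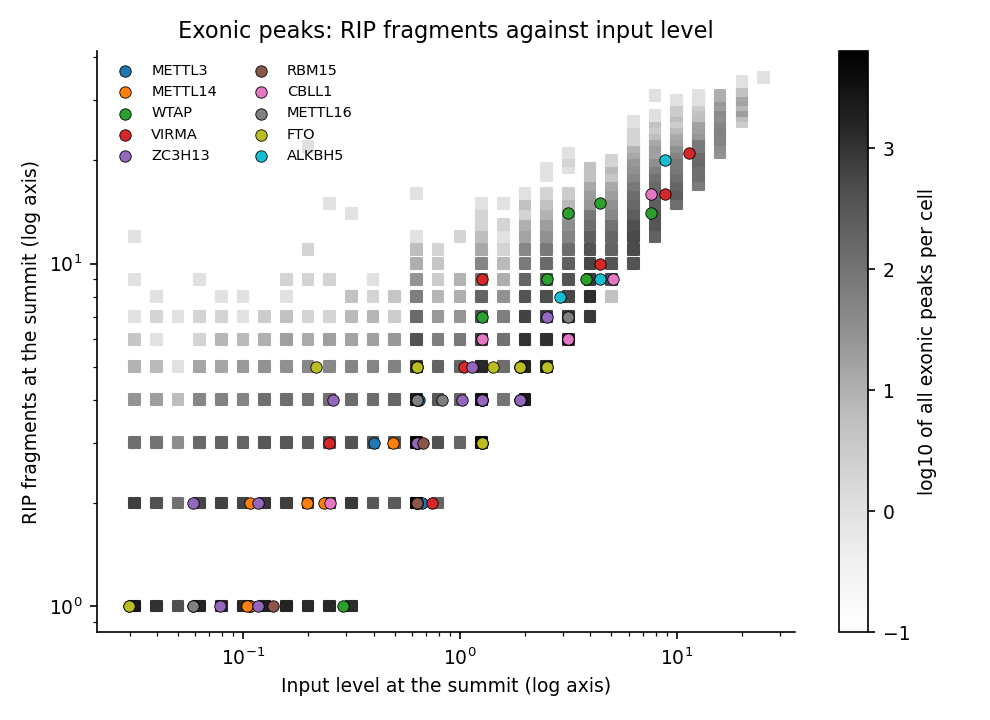
RIP fragments are plotted against the input level at each exonic summit of the 10 genes on log axes, over grey cells that give the number of all exonic peaks. The FTO exon 5 peak stands at 5 fragments and an input level of 0.216, while ALKBH5, WTAP, CBLL1 and some VIRMA peaks lie among the deepest.

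The folds of writers and erasers overlapped. The median exonic fold was 2.21 (1.84 to 2.45) over 77 peaks of the writer complex and 2.07 (1.76 to 3.67) over 11 peaks of the erasers, with overlapping order-statistic intervals. Only 8 of the 94 exonic peaks held 10 or more RIP fragments, and they came from WTAP, VIRMA, CBLL1 and ALKBH5 with folds of 1.72 to 3.60. Peaks of 1 gene share their transcript, so these intervals, which count each peak once, are too narrow.

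By class, 41.3% of the 179 peaks lay in exons (exact Clopper-Pearson interval 34.0 to 48.9), against 30.4% of all peaks. Introns held 36.9% (29.8 to 44.4), against 26.6%. FTO gave 23 of the 66 intron peaks, and without it the intron share of the other members was 29.1% (21.9 to 37.1). The promoter class held 9.50% (5.63 to 14.8), against 20.9% of all peaks, and 3′ UTRs 8.38% (4.77 to 13.4), against 13.8%. Of the exon-class peaks 6.76% lay in the last exon (2.23 to 15.1), near the 7.91% of all exon peaks. VIRMA gave 19 and ZC3H13 15 of the 74 exon-class peaks. The intervals of shares, here and below, also count each peak of a gene as independent and are too narrow. A difference in shares between these genes and all genes was not tested.

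**Figure D4:**
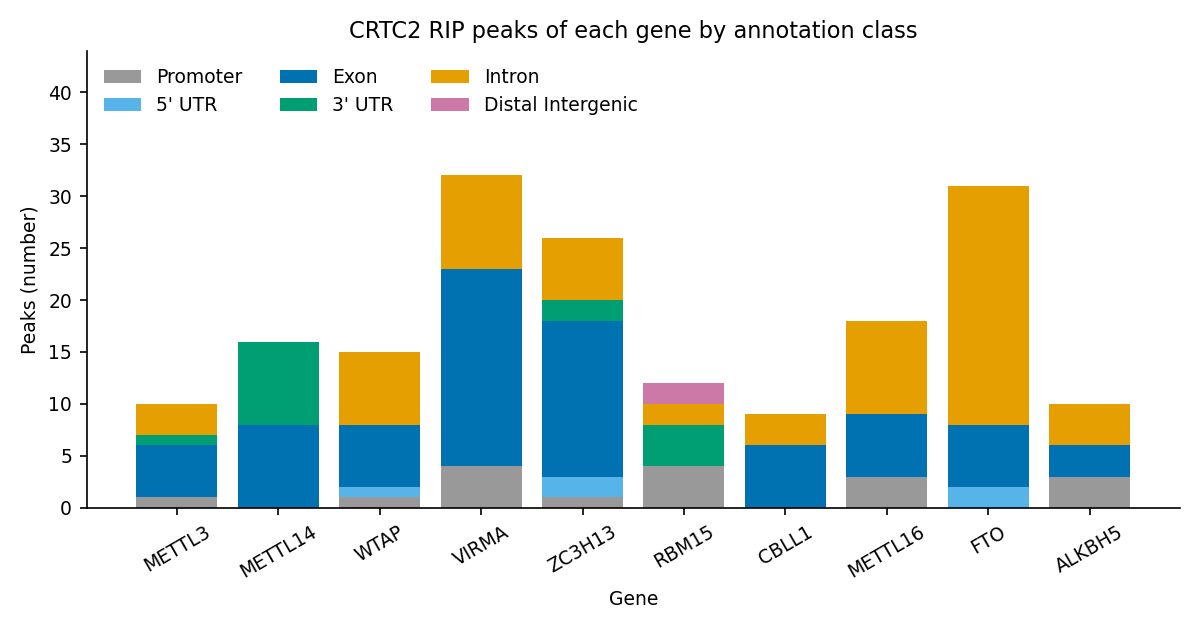
Stacked bars give the number of peaks of each gene by annotation class. VIRMA reaches 32 peaks, 19 of them in exons, while 23 of the 31 FTO peaks lie in introns.

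Intron peaks were thin. Of the 66, 54 (81.8%, 70.4 to 90.2) rested on 1 RIP fragment, against 85.8% of all intron peaks. None of them reached q of 0.05, and their highest fold was 2.91, in FTO and in ZC3H13, on 2 fragments each at the lowest input level of the list, 0.0298. FTO spans 417979 bp, and 16 of its 23 intron peaks were wider than 1 kb. Of its 31 peaks 13 lay at that lowest input level, where a single fragment gives a fold of 1.94. The RBM15 introns differed from this, with 4 fragments in each of 2 peaks.

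**Figure D5:**
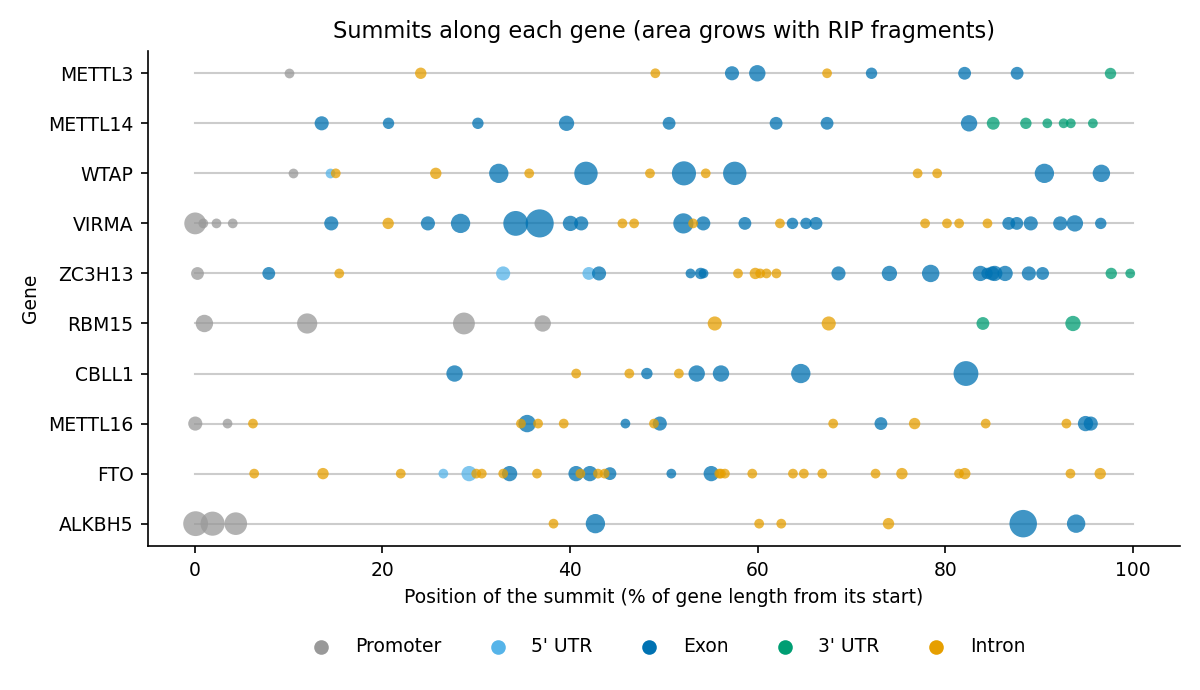
Summits are placed by their distance from the gene's start as a percentage of its length, 1 line per gene, coloured by class and with an area that grows with RIP fragments. VIRMA and METTL14 carry exon peaks along the gene, the ALKBH5 promoter-class peaks lie within the first 4.36% of the gene while those of RBM15 run from 1.01% to 37.1%, and 7 peaks outside a gene's span are not drawn.

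The assignment left part of these messages to neighbouring genes. Of the peaks with a summit inside the span of a member, 25 were given to another gene, 11 of them exonic, and none reached q of 0.05. They were 7 each in CBLL1 and FTO, 5 in METTL16 and 3 each in WTAP and ALKBH5. The 3 in WTAP, all 3′ UTR, went to ACAT2 and stood at 2.26, 1.76 and 1.76. In the other direction 7 peaks given to METTL14, RBM15 and METTL16 lay outside those genes.

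Among 22 other genes of the pathway, all 22 had a peak, 19 had an exonic peak, and 2 reached q of 0.05. Over all protein-coding genes 55.7% had an exonic peak, and 11.1% of all genes with an exonic peak had one at this q. A count of 2 is too small to read against that share. The highest exonic folds of the 19 had a median of 3.06, against 3.34 in the 10 writers and erasers. Both pathway genes at this q were readers. YTHDC1, the nuclear one, stood at 10.03 (5.43 to 17.3) on 11 fragments against an input level of 0.196. YTHDC2, which also has a helicase domain, stood at 6.49 (2.97 to 13.0) on 6 fragments against an input level of 0.0786. Both levels are below that of a single input fragment, as at FTO exon 5. The interval of YTHDC1 overlapped those of FTO and VIRMA. Next came PCIF1, which methylates the cap-adjacent adenosine, at 4.40 (2.01 to 8.85), and ALKBH8, a tRNA-modifying relative of the erasers, at 4.28 (1.96 to 8.61), both on 6 fragments and neither at q of 0.05.

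Of the hepatocyte markers, 8 of 10 had an exonic peak, ALB, APOA1 and AFP included, while SERPINA1 had no peak of any class. An exonic peak was found for 1 of 4 epithelial markers (CDH1, with no peak on EPCAM), 0 of 4 blood markers, 2 of 3 endothelial markers (PECAM1 and KDR) and 1 of 4 fibroblast markers (LUM). Over all protein-coding genes 55.7% had an exonic peak. Against 11.1% of all genes with an exonic peak, 2 of the 12 markers with such a peak had one at q of at most 0.05. They were PECAM1, with 3 fragments in a peak 21396 bp wide, and APOB, with 3 fragments in one 6408 bp wide, both at a fold of 3.88, a q of 0.00426 and the lowest input level of the list. No peak was listed on CDH5, PTPRC, CD3E, COL1A1 or COL3A1. By their labels both libraries came from HCCLM3 cells, and what the peaks on markers of other cell types reflect was not tested.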

How the data were processed

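CRTC2 RIP and input RNA of HCCLM3 cells were compared, 1 library each. The labels' protocols name the Magna RIP kit for recovery of the RNA and a SMARTer stranded kit for the libraries. The tools listed in the submitters' processing notes are HISAT2 and MACS2 and the build is hg38. The version of each was not given in the sources used here. A single annotated peak list was deposited by the authors, with a fold enrichment (a linear ratio, RIP over control at the summit), a −log10 p-value and a −log10 q-value for each peak, and a score that equals 10 times the −log10 p rounded down. The headers of the p and q columns were spoiled, and the columns were identified by place and values. The control is taken to be the input library. The lowest −log10 p was 1.30.

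A whole number of RIP fragments and an input level were recovered from fold and p within 0.001 (Poisson tail, pseudocount 1). For 173 of the 179 peaks of these genes a single number fitted, and otherwise the closest was taken. The recovery was tested on data simulated with the same formula, so that test cannot show whether the authors' values follow it. Library totals are not used here, so depth is given at each summit. Of 19480 gene identifiers, 19463 matched the RefSeq table (GRCh38.p14), which gave gene spans and the identifier of CBLL1.

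All 10 members are named, each with its highest-fold exonic peak, its peak of lowest q where that is below 1, and its peaks at q of at most 0.05. Other pathway genes are named where they reached that q or were among the 4 highest. The members and lists were chosen with earlier results of these data known. Alternatives covered peak limits, width, gene assignment, merging and the pseudocount. A search for the m6A motif in peaks was planned but not run, since no genome was used here. Python 3.11.15, pandas 2.3.3, numpy 2.4.6, scipy 1.17.1 and matplotlib 3.10.9 were used.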

Additional observations from a re-analysis of the deposited data

How the results depend on the processing

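The number of peaks on the 10 genes (179) was 2 at q of at most 0.05, 2 at a fold of at least 4 and 44 with at least 5 RIP fragments, and 122 to 197 under the other alternatives. Genes with an exonic peak (10) were 2 under each of the first pair of limits and 9 or 10 elsewhere. Genes at q of at most 0.05 (2) were 1 with the nearest-start gene for every row and 1 where annotation and nearest-start gene had to be the same, because the FTO exon 5 peak lies nearer to another start; under the other alternatives run it stayed 2. The exon share (41.3%) was 100% at either of the q and fold limits, 77.3% with at least 5 fragments and 49.0% up to 1 kb in width, and 37.6% to 46.3% otherwise. The median exonic fold (2.11) was 4.67 at the q limit, 4.67 at the fold limit and 2.55 with a pseudocount of 0.5, and 2.07 to 2.21 otherwise. The median of the highest exonic folds (3.34) was 4.67 at the q limit. Limits on q, fold and fragments select higher peaks by construction. The assignment by summit within the gene's span was added after the data were seen. The planned motif search was not run. No paired analysis was possible because there is 1 library per group. Depth limits every statement here: 58 of the 94 exonic peaks held fewer than 5 RIP fragments.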

Other observations

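Of the genes around the methyl donor, all 4 had a peak and 3 had exonic peaks, 16 in all, with none at q of 0.05. MAT2A, named here after its values were seen because METTL16 acts on its mRNA, had 5 exonic peaks with a median fold of 1.98, and the highest, in the 3′ UTR, stood at 2.65 (1.16 to 5.59) on 5 RIP fragments. MAT1A, the form of the adult liver, had 1 peak and no exonic one. Of 7 relatives of the erasers, 6 had exonic peaks, 30 in all, and 0 reached q of 0.05. Over all protein-coding genes 55.7% had an exonic peak, and 11.1% of all genes with an exonic peak had one at this q. Both lists are too short to read against these shares.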
